A study of Rana pirica with 9 samples.

Results

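Heat shock and chaperone genes were read out in tadpole brains of the brown frog Rana pirica, as 75 probe sets for 49 genes among the 15491 probe sets tested. A probe set was included when its single annotated symbol, in lower case and without the ending that marks a Xenopus gene copy, began with hsp, dnaj, pdia or cct followed by a digit from 2 to 8. The gene dnajc5 was left out. By family these were 11 probe sets of the Hsp70 group, 3 of Hsp90, 5 of the small heat shock proteins, 28 of the J-domain proteins, 14 of the cytosolic chaperonin CCT and 8 of the protein disulfide isomerases. Another 6 matched the rule outside these families, for the mitochondrial chaperonin genes hspd1 and hspe1 and the Hsp70 cofactor gene hspbp1. The inducible gene annotated as hsp70 was counted with the Hsp70 group.

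Control tadpoles lived for 8 days without predators (6 arrays), and the others lived for 8 days with salamander larvae, which eat tadpoles (3 arrays). All were at a stage before hind limbs grew, and each array carried RNA from 10 pooled brains. The labels give no strain, genotype or age for either group. The arrays were Affymetrix Xenopus GeneChips, so RNA of one frog was bound to probes made for another, with separate probe sets for the L and S copies of many Xenopus genes.

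Chaperones bind proteins that are not yet folded or have come unfolded. Hsp70 proteins take up and release such chains in a cycle that J-domain proteins start and nucleotide exchange factors end, and Hsp90 receives some of the clients, the glucocorticoid receptor among them. Small heat shock proteins hold unfolded proteins without using ATP, CCT folds actin and tubulin, and disulfide isomerases form and rearrange disulfide bonds in the endoplasmic reticulum. Heat and other damage to proteins switch many of these genes on through the transcription factor Hsf1, and unfolded protein in the endoplasmic reticulum switches on another set through factors such as Xbp1.

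No heat shock or chaperone gene passed the test of tadpoles housed with salamander larvae against those without predators, made with limma and Benjamini-Hochberg adjustment over all probe sets, with 0 of 75 members at an adjusted p under 0.05 and a background of 0% over all 15491. The lowest members were hspa8, the constitutive cytosolic Hsp70, at -1.55 on the log2 scale (SE 0.48) and hsph1, its exchange factor of the Hsp110 type, at -1.43 (SE 0.50). The highest were an hspa14 probe set at 1.83 (SE 0.93) and an hspa9 probe set at 1.41 (SE 0.91). An unadjusted p under 0.05 was reached by 4 members (hspa8, hsph1 and dnajb2 lower, dnajc3 higher), or 5.33%, against 5.15% of all probe sets. By direction, 3 were lower (4% of members, 3.03% of all probe sets) and 1 was higher (1.33% and 2.12%). The member count was 1 without salamander array 2, 2 without control array 1 and 7 without control array 5. The groups did not overlap in 1 member, hspa8, or 1.33%, against 2.33% of all probe sets (1.09% above, 1.24% below). These shares, counted over probe sets, lie near the background. Differences were positive in 44 of 75 probe sets, or 58.7% (all probe sets 50.1%), and in 24 of 49 genes, or 49% (all genes 50%). Taken as means of their probe sets, 5 of the 49 genes had an unadjusted p under 0.05, or 10.2%, against 4.81% of all genes. Of these cct3 and dnajc3 were higher (4.08%, all genes 2.08%) and hspa8, hsph1 and dnajb2 were lower (6.12%, all genes 2.73%). All 5 had 1 probe set each, so these are the same values as in the probe set test and add no further measurement. The unadjusted p of cct3 in limma was 0.0447 over genes and 0.0527 over probe sets. Only hspa8 had groups apart at the gene level, or 2.04% (all genes 2.19%). The median difference was 0.083 over the members and 0.0016 over all probe sets.

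Every value below is a log2 signal relative to the median control array of the same probe set. The control median is therefore 0 by construction, no value gives a level, and levels of different genes cannot be compared. In pooled brains, fewer cells of a type and less RNA per cell cannot be told apart. Some values carry a mark, read from the rounding of the deposited numbers, that a signal below 256 entered them, and these are called weak. That signal may be the array's own or the control median used for the centring. A member is called bright if at most 1 of its 9 values is so marked. The mark misses part of the weak signals. By this rule 35 of the 75 members were bright, 46.7%, against 47.3% of all probe sets.

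**Figure D1:**
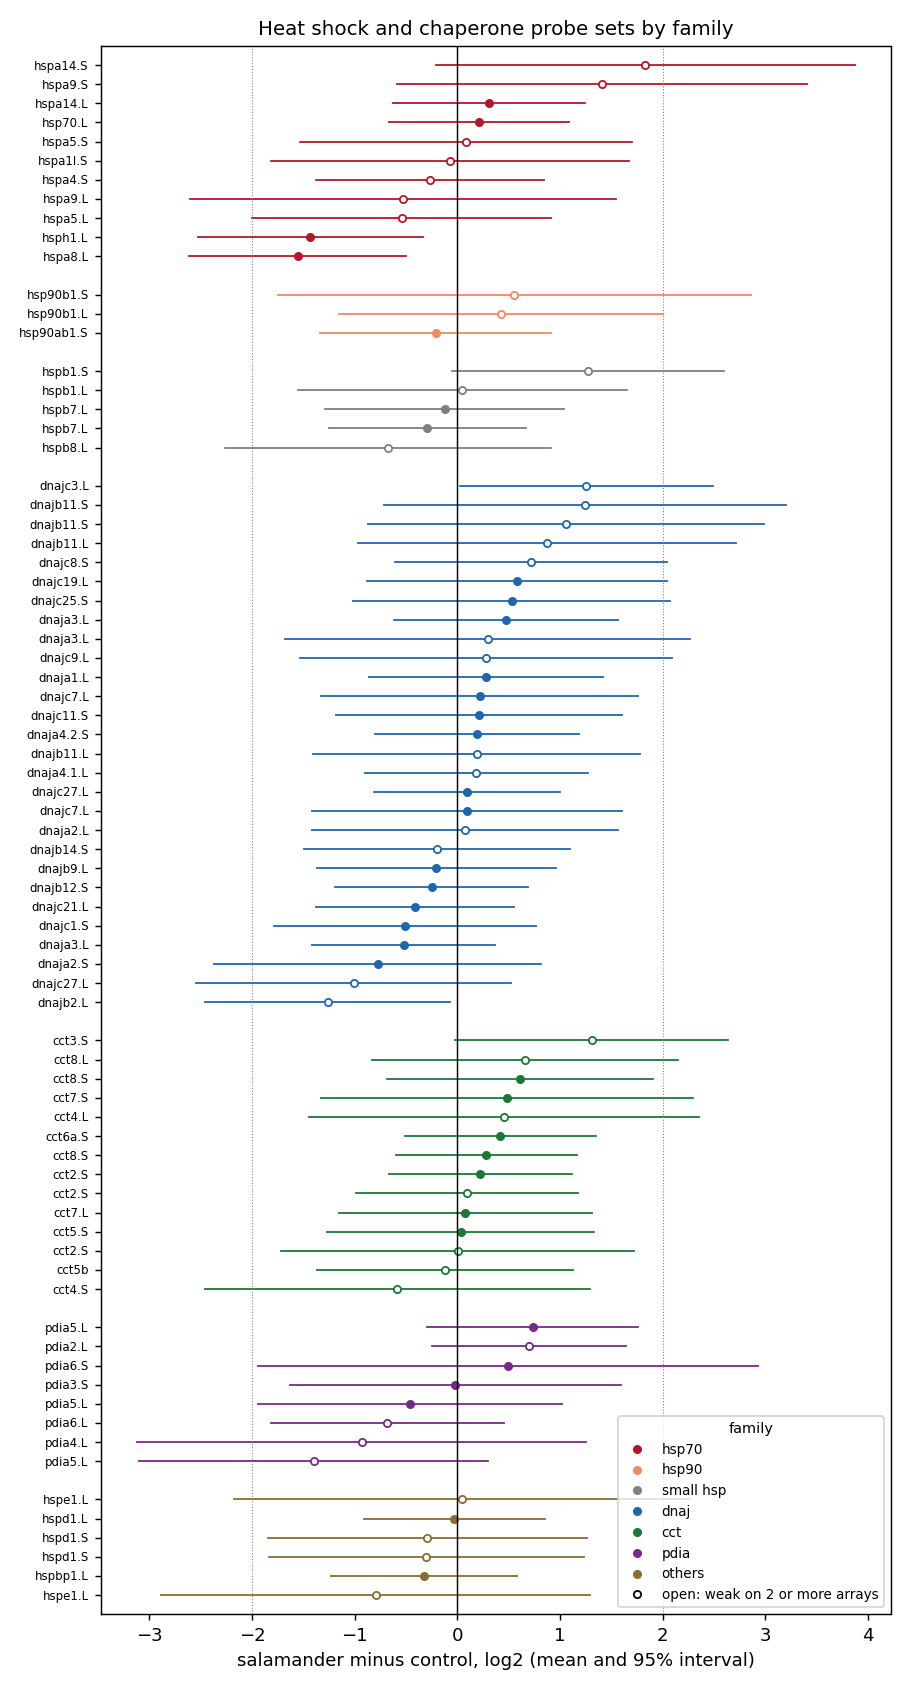
Difference between salamander and control groups (log2, horizontal axis) for each of the 75 probe sets, ordered within families, with 95% intervals from limma over 9 arrays; dotted lines mark a 4-fold difference and open points are probe sets with the weak mark on 2 or more arrays. Most intervals span 0, and hspa8 and hsph1 are the lowest points of the plot with filled symbols.

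In the Hsp70 group the 11 probe sets had a median difference of -0.073, with 5 positive and 6 negative. The constitutive hspa8 ran from -0.91 to 0.85 on the 6 control arrays and stood at -2.11, -1.13 and -1.38 on the 3 salamander arrays. All 3 salamander arrays thus lay below all controls, at a mean of -1.54 ± 0.51 (SD, n = 3) against 0.014 ± 0.59 (SD, n = 6). This is 2.94-fold lower, with a 95% interval of the log2 difference from -2.61 to -0.50 and an adjusted p in limma of 0.797. Of its 9 values, 1 carried the weak mark. With 1 array left out, its difference stayed between -1.76 and -1.27.

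Hsph1, which releases ADP from Hsp70 and so lets it drop its client, ran from -1.11 to 0.40 on the controls and stood at -0.98, -2.41 and -1.21 on the salamander arrays. Control array 2, at -1.11, lay apart from the other controls and below salamander array 1, so the groups overlapped. The salamander mean was 2.70-fold lower, with an interval from -2.52 to -0.34 and an adjusted p in limma of 0.866. No value of this probe set was marked weak. Leaving out 1 array gave differences from -1.71 to -0.99, the latter without salamander array 2.

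The other bright probe sets of the group were hsp70, the heat-inducible form, and hspa14 L, an Hsp70 relative that binds ribosomes in mammals. The inducible hsp70 ran from -0.26 to 0.55 on the controls and stood at 0.29, 0.41 and 0.07 on the salamander arrays. Its salamander values lay inside the control range, and the difference was 0.21 with an interval from -0.67 to 1.08. Its replicate SD of 0.272 was the lowest of all 75 members.

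The S probe set of hspa14 ran from -2.05 to 2.70 on the controls and stood at 1.54, 2.53 and 2.51 on the salamander arrays. Control array 5 was above every salamander array and control array 4 above salamander array 1. The interval was -0.21 to 3.87, and the bright L probe set of the same gene differed by 0.31 (SE 0.43). In hspa9, the Hsp70 of mitochondria, the L probe set was at -0.53 (SE 0.95) and the S probe set at 1.41 (SE 0.91). They were weak on 3 and 4 arrays. The S value rests on salamander array 2, at 3.87, beside 1.40 and 0.25 on the other salamander arrays, and was 0.39 without it.

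Hspa5, known as BiP, is the Hsp70 of the endoplasmic reticulum and a standard marker of unfolded protein there. Its L probe set stood at -1.98, 0.61 and -0.73 on the salamander arrays and ran from -1.16 to 1.08 on the controls. Its S probe set stood at -1.76, 1.89 and -0.13 against a control range from -1.23 to 0.80. In both, salamander array 1 was below all controls, and the S value of array 2 was above them all. The differences were -0.54 (SE 0.67) and 0.083 (SE 0.74). A probe set annotated with both copies of hspa5, which the rule leaves out, was at -0.32 (SE 0.65). The 2 remaining probe sets of the group, for the exchange factor hspa4 and for hspa1l, lay between -0.27 and -0.073.

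**Figure D2:**
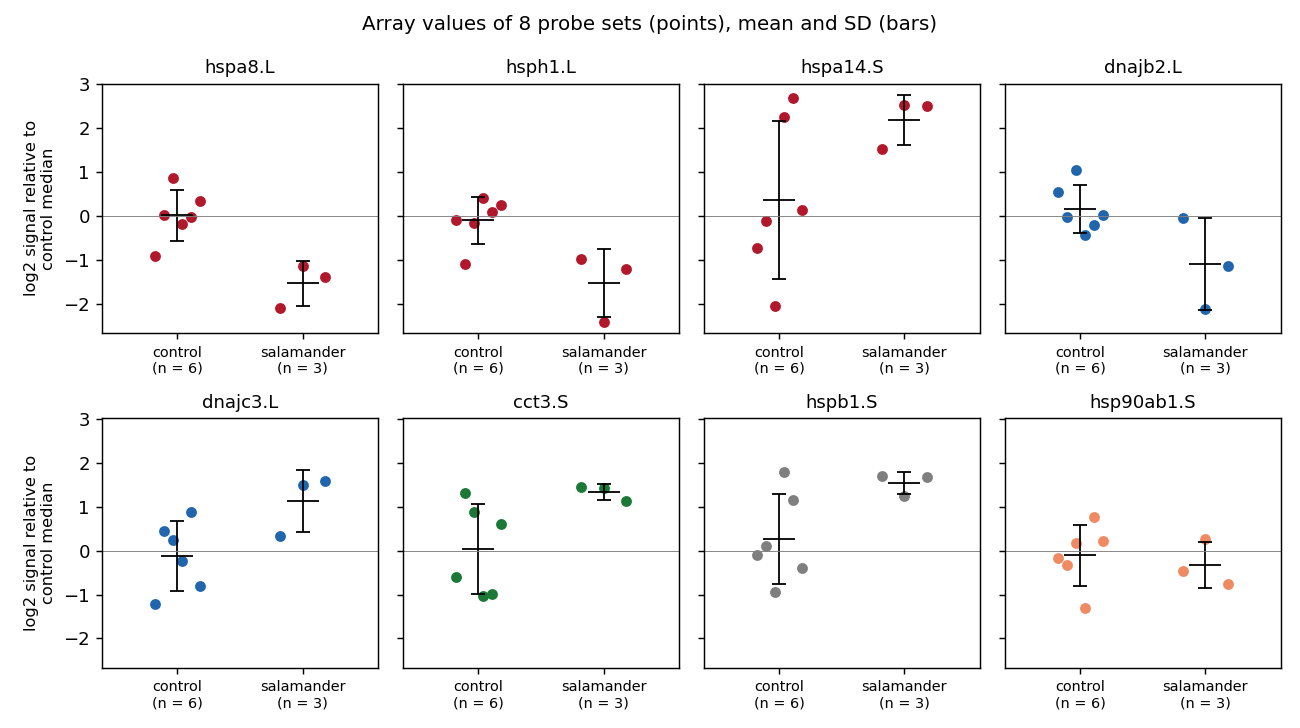
Log2 signal relative to the control median (vertical axis) on each array for 8 probe sets, with points for the 6 control and 3 salamander arrays and bars for mean and SD. Only in hspa8 of these 8 do the groups not overlap; in cct3 and hspb1 the salamander arrays are close together while the controls are spread over more than 2 log2 units.

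Both Hsp90 genes gave small differences with wide intervals. The cytosolic hsp90ab1, which holds steroid receptors ready for hormone, stood at -0.46, 0.27 and -0.75 on the salamander arrays and ran from -1.30 to 0.76 on the controls. All of its salamander values lay inside the control range, and its difference was -0.21 with an interval from -1.34 to 0.92. Hsp90b1, the form of the endoplasmic reticulum known as Grp94, had probe sets at 0.42 (SE 0.72) and 0.55 (SE 1.05). The L probe set was high on salamander array 2, at 2.07, where the S probe set was low, at -1.20.

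Among the small heat shock proteins, 2 of 5 probe sets were positive, with a median of -0.12. The S probe set of hspb1, the gene of Hsp27, stood at 1.69, 1.25 and 1.68 on the salamander arrays and ran from -0.93 to 1.80 on the controls. The 3 salamander arrays were close together and high, but control array 4 was higher than all of them. The difference was 1.27 with an interval from -0.052 to 2.59 and an adjusted p in limma of 0.945. The L probe set of the same gene differed by 0.050 (SE 0.73). Hspb8, which works with Bag3 to clear misfolded proteins, was at -0.68 (SE 0.73), with 2 salamander arrays at -1.94 and -2.03 and the other at 0.55. Its controls ran from -1.73 to 0.33, with control array 5 also low, at -1.69. Of the probe sets for the muscle and heart form hspb7, one was at -0.29 (SE 0.44) and the other at -0.12.

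The J-domain proteins were the largest family, with 19 of 28 probe sets positive and a median of 0.19. Over genes, 12 of 20 were positive. Per array, the median over the 28 averaged -0.0064 on the salamander arrays and 0.038 on the controls, so it was not higher with salamanders. Dnajb2, a J-domain protein of neurons, ran from -0.44 to 1.05 on the controls and stood at -0.036, -2.13 and -1.15 on the salamander arrays. Salamander array 1 lay inside the control range and the other two below it. The difference was -1.26, or 2.40-fold lower, with an interval from -2.45 to -0.073 and an adjusted p in limma of 0.943. Of its 9 values, 3 were weak. Dnajc3, which sits in the endoplasmic reticulum and inhibits the stress kinase Perk, ran from -1.23 to 0.88 on the controls and stood at 0.33, 1.50 and 1.59 on the salamander arrays. Here too salamander array 1 lay inside the control range, and the other two were above it. The difference was 1.26 with an interval from 0.025 to 2.49 and an adjusted p of 0.945 in limma, and 5 of its 9 values were weak.

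Dnajb11, a cofactor of BiP, had 4 probe sets, which were chosen for mention after their values were seen. They were at 0.19, 0.87, 1.24 and 1.06, all positive, and none was bright. The mean of the 4 was 0.84 (SE 0.39), with an interval from -0.003 to 1.68 and an adjusted p in limma of 0.993 over all genes. Their deviations from the group means did not go together: the 6 pairs had correlations between -0.56 and -0.001 over the 9 arrays. Another probe set, annotated with both copies of the gene and outside the rule, was at -0.69 (SE 1.19). For dnajc27 the probe sets were at 0.093 (SE 0.41) and -1.01 (SE 0.70), the first bright and the second weak on 4 arrays.

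The other 20 J-domain probe sets, for 16 genes, ran from -0.78 (dnaja2) to 0.72 (dnajc8), with 13 positive and a smallest unadjusted p of 0.223 in limma. They cover the general Hsp70 partners dnaja1, dnaja2, dnaja4.1 and dnaja4.2, the mitochondrial dnaja3, dnajc11 and dnajc19, and the endoplasmic reticulum forms dnajb9 and dnajc1. The rest, not assigned to the endoplasmic reticulum or mitochondria here, were dnajb12, dnajb14, dnajc7, dnajc8, dnajc9, dnajc21 and dnajc25. The groups overlapped in all 20. The gene left out of the rule, dnajc5, which chaperones proteins of synaptic vesicles, was at 1.79 (SE 0.57), with salamander arrays at 2.36, 2.34 and 0.27. Its controls ran from -0.85 to 0.45, and salamander array 3 lay inside that range, so the groups overlapped. The adjusted p of dnajc5 in limma was 0.798, and its probe set was weak on 3 arrays.

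Subunits of CCT were the most one-sided family by probe sets, with 12 of 14 positive against 50.1% of all probe sets, and a median of 0.25. Several of these probe sets belong to the same gene. Over genes, 6 of 8 were positive (all genes 50%), while 0 of 3 genes outside the 6 families were. Per array, the median over the 14 was 0.48, 0.27 and 0.30 on the salamander arrays and ran from -0.17 to 0.30 on the controls, so that the groups overlapped. The largest difference belonged to cct3. It ran from -1.02 to 1.33 on the controls and stood at 1.46, 1.42 and 1.14 on the salamander arrays. The salamander arrays were high and close together, with control array 2 above the lowest of them. The difference was 1.31, or 2.48-fold, with an interval from -0.018 to 2.64 and an adjusted p in limma of 0.945.

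Cct6a, at 0.42 (SE 0.42), and an S probe set of cct8, at 0.61 (SE 0.59), followed by p-value. Among the other 11 probe sets, for cct2, cct4, cct5, cct5b, cct7 and cct8, differences ran from -0.58 to 0.66. The subunit tcp1, which belongs to the same ring but not to the name rule, had probe sets at -0.84 (SE 0.70) and 0.000695 (SE 0.43). Within the arrays with high spike-ins described below, the median CCT difference between salamander and control was 0.43. Within those with low spike-ins it was 0.043.

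Of the disulfide isomerase probe sets, 3 of 8 were positive, with a median of -0.24. Pdia2 stood at 1.30, 0.46 and 0.39 on the salamander arrays and ran from -0.42 to 0.61 on the controls, a difference of 0.70 (SE 0.43) with salamander array 1 above all controls. Pdia5 showed the widest disagreement between probe sets of 1 gene among all members. One probe set was at 0.73 (SE 0.47), with salamander arrays at 0.77, 0.42 and 1.36, and another was at -1.40 (SE 0.78), with the same arrays at -1.33, -1.97 and -2.41. The last of them stood at -0.46 (SE 0.68). In the probe set at -1.40, which was weak on 4 arrays, control array 5, at -3.28, was below every salamander array. The remaining probe sets, for the general isomerase pdia3 and for pdia4 and pdia6, ran from -0.93 to 0.49.

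Outside the 6 families, the mitochondrial chaperonin hspd1, known as Hsp60, had 3 probe sets between -0.30 and -0.030. For its lid hspe1, known as Hsp10, the probe sets were at -0.80 (SE 0.96) and 0.046. The Hsp70 cofactor hspbp1 was at -0.32 (SE 0.41), with salamander arrays at -0.026, -0.71 and -0.67. In these 6 probe sets the groups overlapped.

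**Figure D3:**
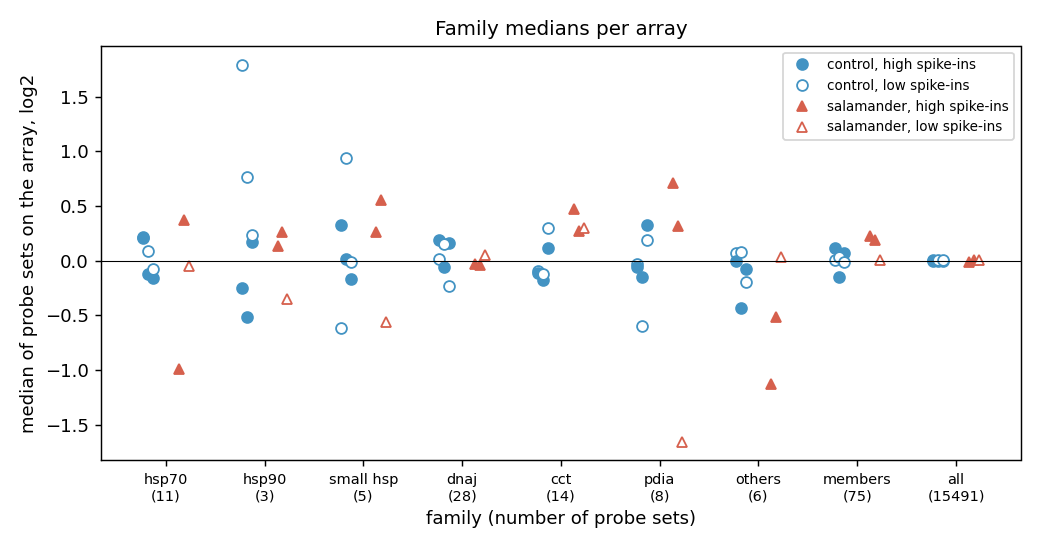
Median over the probe sets of each family on each array (log2, vertical axis), for controls (circles) and salamander arrays (triangles), filled where poly-A spike-ins were high and open where they were low. The salamander arrays differ from each other by 1 log2 unit or more in the Hsp70, small heat shock, disulfide isomerase and remaining families, while all 3 CCT medians of the salamander arrays are positive.

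Grouped by where the proteins work, the 19 probe sets of the endoplasmic reticulum had a median of 0.19, with 11 positive. The 12 probe sets of mitochondria were at 0.0083, with 6 positive, and the 44 of the cytosol and other places at 0.085, with 27 positive. Dnajb12, dnajb14 and dnajc25, at -0.25, -0.20 and 0.53, were counted with the cytosol and other places, and their location was not checked. The medians and counts by place depend on this choice, and no difference between places is drawn from them. Of the members at an unadjusted p under 0.05, dnajc3 belongs to the endoplasmic reticulum, and hspa8, hsph1 and dnajb2 to the cytosol and nucleus. Probe sets for L copies had a median of 0.063 (42 probe sets) and those for S copies one of 0.20 (32 probe sets). Of the 35 bright members, 2 had an unadjusted p under 0.05, hspa8 and hsph1, both lower. That is 5.71%, where 3.7% of all bright probe sets reached it in either direction, 0.929% in the higher and 2.77% in the lower direction. The groups did not overlap in 1 bright member, or 2.86%, against 2.45% of all bright probe sets (1.09% above, 1.35% below). Differences were positive in 20 of the 35, or 57.1%, against 51.2%, and over 1 in size in 2, or 5.71%, against 11%.

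The spread of the family medians between salamander arrays differed by family. It was small for CCT, with an SD of 0.11 over the 3 salamander arrays. It was also small for J-domain proteins, with medians of -0.029, -0.041 and 0.052 and controls between -0.23 and 0.19. The Hsp70 median was -0.99 on salamander array 1, 0.37 on array 2 and -0.051 on array 3, with controls between -0.16 and 0.22. The disulfide isomerase median was 0.71, 0.32 and -1.65 in the same order, with controls between -0.60 and 0.33. These medians rest on 14 CCT, 28 J-domain, 11 Hsp70 and 8 disulfide isomerase probe sets. The part of these numbers in the spread was not tested. Over all pairs of members, deviations from the group means had a mean correlation of -0.0016 over the 9 arrays, and over all probe sets 2.5e-05. Within families the mean was highest for the disulfide isomerases, at 0.13, and was 0.013 for J-domain proteins and 0.0022 for the Hsp70 group. It was 0.074 for small heat shock proteins, -0.039 for CCT, -0.050 for Hsp90 and -0.17 for the probe sets outside the 6 families.

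Probe sets of 1 gene did not deviate together. The 19 member genes with several probe sets formed 34 pairs, whose differences had the same sign in 23, or 67.6%, where all genes with several probe sets gave 49.9% of 4219 pairs. Without salamander array 3 the member share was 41.2%, and without control array 6 it was 44.1%. Deviations within the 34 pairs correlated at -0.037 on average, and within all 4219 pairs at 0.0088. In the 6 member pairs whose identifiers share a stem and so name the same target sequence, the mean was 0.024, with a range from -0.47 to 0.63. Over all genes, 406 such pairs had a mean of 0.0094, and 50.5% of them had differences of the same sign. Whether each probe set binds the Rana pirica RNA of its annotated gene was not tested, and hspa8, hsph1, dnajb2, dnajc3 and cct3 had 1 probe set each.

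**Figure D4:**
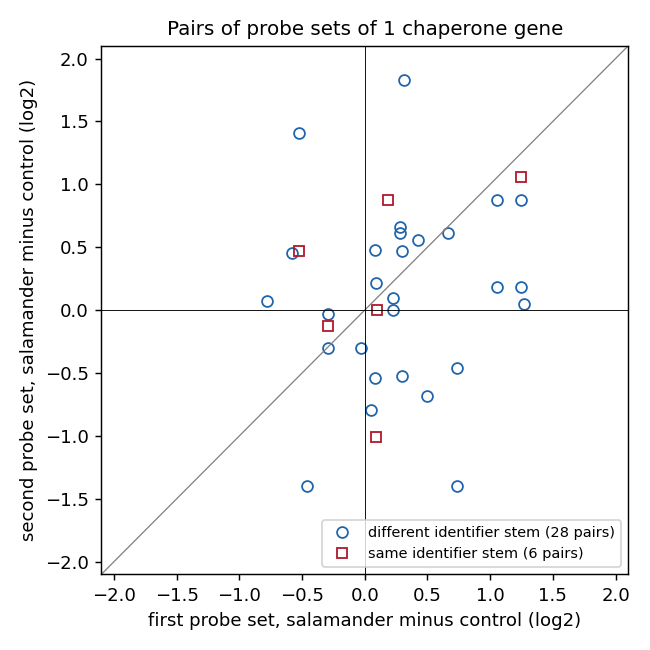
Salamander minus control difference (log2) of one probe set against another of the same gene, for 34 pairs in 19 chaperone genes, with squares for pairs whose identifiers share a stem. The points are spread around the diagonal, and 11 of the 34 pairs lie in the quadrants of opposite sign.

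Sizes that the arrays leave possible were wide. The replicate SD of a member probe set had a median of 0.95, from 0.27 to 1.91, against 0.96 over all probe sets. In 44 of 75 members, or 58.7%, the 95% interval excluded a 4-fold difference either way (54.6% of all probe sets). A 2-fold difference was excluded in 2 members, or 2.67% (2.78% of all), namely the bright probe sets of hspd1 at -0.030 (interval -0.91 to 0.85) and dnajc27 at 0.093 (interval -0.81 to 0.997). Over genes, a 4-fold difference was excluded in 39 of 49, or 79.6% (69.3% of all genes), and a 2-fold one in 2, or 4.08% (7.96%). In the fit over genes these 2 were the inducible hsp70 (interval -0.57 to 0.99) and dnaja3 (interval -0.77 to 0.93), not hspd1 or dnajc27. Over bright members, a 4-fold difference was excluded in 28 of 35, or 80% (68.4% of all bright probe sets), and a 2-fold one in 2, or 5.71% (5.3%). For the inducible hsp70 and for hsp90ab1 a 4-fold change either way was outside the interval, and for hspa5 it was inside for the L probe set and outside for the S probe set.

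Other genes of protein folding, from a list of 113 chaperone cofactors, folding enzymes and stress regulators of which 63 were measured, gave 0 calls in limma over all genes. An unadjusted p under 0.05 was reached by 1 of the 63, lower, and by 4.81% of all genes, and 31 were positive. That gene was syvn1, the ubiquitin ligase that disposes of misfolded proteins of the endoplasmic reticulum, at -1.10 (SE 0.43). This is a mean of 2 probe sets, at -1.53 (SE 0.62) for the S copy and -0.67 (SE 0.71) for the L copy. The mean stood at -1.90, -1.18 and -1.25 on the salamander arrays, and its lowest control was at -1.25, so the groups overlapped. Next by p-value were the translocation channel sec61a1 at -1.13 (SE 0.56), the endoplasmic reticulum exchange factor hyou1 at 1.24 (SE 0.64) and hsbp1, which binds Hsf1, at -1.21 (SE 0.69). Hyou1 was weak on 8 arrays and hsbp1 on 7.

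For the regulators of the stress responses every interval spanned 0. Hsf1 stood at -0.27 (interval -1.53 to 0.99) and hsf2 at 0.25 (interval -0.90 to 1.41). Xbp1, the factor of the unfolded protein response, was at 0.14 (interval -1.30 to 1.58), with salamander arrays at 1.13, 0.78 and -1.16. Its controls ran from -1.02 to 1.68. These values are RNA, and the activity of hsf1, hsf2 or xbp1 was not measured. The lectin chaperones canx and calr were at 0.10 (interval -0.74 to 0.95) and 0.065 (interval -0.72 to 0.85). No singly annotated probe set was found for atf4 or ddit3, which are not analysed here.

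The poly-A spike-in RNAs were high (means of 1.27 to 1.69) on control arrays 2, 3 and 4 and salamander arrays 1 and 2, and low (-2.25 to -1.76) on the other 4, so each set held both groups. Within the high and the low set, hspa8 differed by -1.85 and -1.18, hsph1 by -1.41 and -1.29, dnajb2 by -1.28 and -1.27, dnajc3 by 0.76 and 1.98, and cct3 by 1.04 and 1.47. The low set rests on salamander array 3 alone. Markers of neurons (8 genes), microglia and leukocytes (3) and skeletal muscle (5) had 6, 3 and 5 positive differences, and those of erythrocytes (7) had 1. Of all genes, 50% were positive. The lists held 12, 6, 8 and 8 genes in this order, and the others were not measured. Of the measured genes, 5, 1, 2 and 3 averaged at most 1 weak value per probe set. Of the markers of oligodendrocytes, 0 of 2 were positive, of astroglia and ependyma 1 of 2, and of skin 1 of 1. These lists held 5, 7 and 6 genes, and 0, 1 and 0 of the measured ones averaged at most 1 weak value. The mean of the neuron markers ran from -0.17 to 0.19 on the controls and from 0.18 to 0.77 on the salamander arrays. For the microglia and leukocyte markers the ranges were -0.43 to 0.51 and 0.67 to 1.48, which did not overlap. Taken singly, 2.19% of all genes had groups apart, and the share among means of 3 genes was not counted. For the muscle markers they were -0.45 to 0.25 and 0.020 to 0.42, and for the erythrocyte markers -0.98 to 0.56 and -0.71 to -0.28. The salamander means lay inside the control range for oligodendrocyte markers, at -0.995 to -0.012 against -1.07 to 1.003, and reached below it for astroglia and ependyma, at -1.02 to -0.074 against -0.89 to 0.28. An unadjusted p under 0.05 in limma was reached by 1 of 8 neuron markers and 1 of 3 microglia and leukocyte markers, both higher. It was also reached by 1 of 7 erythrocyte markers, lower, and by 4.81% of all genes. No marker gene passed limma's adjusted threshold, and the part of these cells in the chaperone values was not tested. As the values hold no level, the brain label could not be checked against markers being present or absent.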

How the data were processed

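The submitters' processing notes name MAS5 as the source of the signals, without a version. The deposited values are signed log2 numbers, for 15611 probe sets and the 9 arrays, and 0 columns belong to anything else. The controls of each probe set had a median of 0 (largest departure 9.5e-07), which shows a centring that no label states, and the scaling between arrays is unknown. Weak values were read from single-precision rounding steps too fine for a log2 value of 8 or more (a tolerance of 0.2 step), a rule made after seeing the data.

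Salamander minus control was fitted with limma 3.58.1 (lmFit, eBayes) in R 4.3.3 on all 15491 probe sets other than 120 Affymetrix controls, and on 6485 genes as means of their probe sets, with Benjamini-Hochberg adjustment over the whole table and a threshold of 0.05. No filter or pseudocount was used, and the number of arrays limits the precision. The fit was also run on simulated independent normal values with known changes added. The share of those changes that it called is not given here. Symbols came from the platform annotation (9304 probe sets with 1 symbol, 195 with several), and families were described without a set test. Python 3.11.15 and matplotlib 3.10.9 drew the figures.

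The members, families, lists and tests were chosen with earlier results of these data known. Probe sets given with array values were the 3 with the smallest p in each family, all of hspa8, hspa5, hsph1 and the Hsp90 genes, and the pair farthest apart; of the other folding genes, the 4 with the smallest p and 7 regulators and lectin chaperones where measured. The remaining probe sets of hsp70, hspa9, hspa14, hspb1, dnajb11, dnajc27 and pdia5 were added after their values were seen, as was the grouping by cell compartment. Arrays of a group are biological replicates by their labels. Deviations of same-numbered arrays correlated at 0.0059, 0.016 and -0.0049, so the numbers were not taken to pair them.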

Additional observations from a re-analysis of the deposited data

Results flagged for a closer look

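Among 50 sets of 6 control values examined, 6 held a control array whose gap to the nearest other control, divided by the range of the 6, was over Dixon's 95% critical value for that number. For normally distributed values chance gives about 1 in 20, and whether these values are normal was not tested. The share over all probe sets was not counted. Member probe sets outside the 50 also passed, among them dnajc25 (ratio 0.86), cct5 (0.84) and dnaja2 S (0.76). The 6 are therefore not shown to be unusual for these data, and hsph1, at 0.626, passed only narrowly. Control array 2 stood at -1.11 in hsph1, below the other controls and near the salamander arrays. Control array 4 stood at -0.95 in the L probe set of hspa14. Control array 1 stood at -1.95 in an S probe set of cct8. In the pdia5 probe set with the negative difference, control array 5 was at -3.28. Control array 6 stood at -1.72 in sec61a1, and control array 2 at 2.66 in hyou1, above all 3 salamander arrays. Without these arrays the differences were -1.63 for hsph1, 0.14 for hspa14 L, 0.27 for cct8, -1.95 for pdia5, -1.42 for sec61a1 and 1.67 for hyou1.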

How the results depend on the processing

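No probe set and no member gene passed an adjusted p of 0.05 in limma in any alternative run for them (0 calls over all probe sets, member probe sets and member genes). Calls over all genes were not counted under the alternatives. The count of members at an unadjusted p under 0.05 was 4, and became 2 after quantile normalization, 2 within each spike-in set and 2 among bright probe sets. It was also 2 among probe sets bright by a rounding tolerance of 0.1 or 0.3 in place of 0.2, tolerances chosen after seeing the data, which did not move that count. It was 5 with an ordinary linear model, 4 with robust eBayes, 3 with the spike-in set as a block and 5 with the replicate number as a block. With 1 array left out it ran from 1 to 7. Leaving out 1 array moved the median difference between -0.22 and 0.19 for Hsp70, -0.30 and 0.74 for Hsp90, -0.30 and 0.02 for small heat shock proteins, 0.026 and 0.26 for J-domain proteins, 0.16 and 0.33 for CCT, -0.53 and 0.39 for disulfide isomerases, and -0.53 and -0.05 for the others. The agreement of probe sets of 1 gene moved between 41.2% and 70.6%. The Hsp70 median among bright probe sets was -0.61. Within the low spike-in set the medians were -1.03 for Hsp90, 0.41 for J-domain proteins, 0.043 for CCT and -1.28 for disulfide isomerases, and within the high set 0.037 for J-domain proteins and 0.43 for CCT. Family medians also turned sign under the replicate block for Hsp70 (0.093) and small heat shock proteins (0.33), and within the high set for Hsp70 (0.057), small heat shock proteins (0.077) and disulfide isomerases (0.20). Among bright probe sets they turned for Hsp90 (-0.21) and disulfide isomerases (0.24), and for small heat shock proteins the mean over probe sets was 0.045.

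For single probe sets and genes, the sign turned under the replicate block for hspa5 S (-0.48), hspa9 L (0.11), dnajb11 L (-0.092), the bright dnajc27 probe set (-0.026), hsf1 (0.24) and canx (-0.033). The numbers are not known to pair the arrays. The highest correlations of salamander arrays 1, 2 and 3 were with control arrays 3, 2 and 5. At 0.0072, 0.016 and 0.0095 they are near 0 too, which neither shows nor excludes a pairing. With the spike-in set as a block it turned for xbp1 (-0.047), and after quantile normalization for hspb1 L (-0.000563). Within the high set it turned for hsp90ab1 (0.39), dnajb11 L (-0.71), a pdia5 probe set (0.032), hsf2 (-0.10) and canx (-0.28). Within the low set it turned for hspa14 L (-0.16), hspa9 L (1.10), hspa9 S (-0.085), hsp90b1 L (-1.05), dnajc27 (-0.28), hspd1 S (1.01), hsf1 (0.56), xbp1 (-0.93) and calr (-0.059). With 1 array left out, values crossed 0 for hspa5 L (-1.20 to 0.095), hspa5 S (-0.86 to 0.96), hspa9 L (-1.61 to 0.049), hsp90ab1 (-0.50 to 0.0068), hsp90b1 L (-0.30 to 0.91), hsp90b1 S (-0.065 to 1.55), hspb1 L (-0.39 to 0.77), dnajb11 L (-0.37 to 0.59), dnajc27 (-0.16 to 0.22), pdia5 (-1.24 to 0.40) and hspd1 S (-0.99 to 0.14). The same held for hsf1 (-0.87 to 0.074), hsf2 (-0.058 to 0.43), xbp1 (-0.30 to 0.85), canx (-0.084 to 0.23) and calr (-0.038 to 0.16). The cause was not tested. No other probe set or gene given with array values turned under these alternatives.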
